A study of Mus musculus with 12 samples.

Results

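Nuclear genes of the mitochondrial respiratory chain were measured in lung cells carrying CD11c from mice lacking the microRNA gene Mir22 and from wild-type mice. Members were chosen by gene symbol, as every probe whose symbol begins with Ndufa, Ndufb, Ndufc, Ndufs, Ndufv, Sdha, Sdhb, Sdhc, Sdhd, Uqcr, Cox4, Cox5, Cox6, Cox7, Cox8 or Atp5 (Ndufa4 excepted) and whose detection p was under 0.05 on at least 3 of 12 arrays. Of 122 probes from 85 genes with such a symbol, 113 probes from 81 genes passed. With the brightest probe standing for each gene, these were 81 of the 12380 features tested. They comprised 68 subunits (32 of complex I, 3 of complex II, 6 of complex III, 11 of complex IV and 16 of complex V), 11 assembly factors, the supercomplex factor Cox7a2l and the pseudogene transcript Ndufs5-ps.

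The respiratory chain passes electrons from NADH and succinate through complexes I to IV to oxygen and pumps protons across the inner mitochondrial membrane, and complex V, ATP synthase, uses the proton gradient to make ATP. Most subunits are encoded in the nucleus, and a core set is encoded in mitochondrial DNA, so both genomes must supply parts for every complex except complex II, which is wholly nuclear. In lung, alveolar macrophages are known for a strong reliance on fatty acid use and mitochondrial respiration, while several complex IV subunits exist as paired isoforms, a broadly used form and a form known from heart, skeletal muscle or testis.

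The study formed 4 groups of 3 Illumina bead arrays: Mir22-/- mice given nanoparticulate carbon black (nCB), wild-type mice given nCB, Mir22-/- mice given phosphate-buffered saline (PBS) and wild-type mice given PBS. All mice were of the strain B6(Cg)-Tyrc-2J/J and labelled as 4 months old, with an exposure that began at 2 months of age and lasted 1 month, and the cells were obtained with AutoMACS, a magnetic bead separator. The labels give neither the promoter nor the cell type of the deletion. They do not state that each array held a different animal, so the spread behind the p-values may be technical. No probe was listed for Mir22, so the deletion was not checked on the arrays.

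Between 14215 and 15849 probes were detected on single arrays, and arrays of 1 group correlated at 0.987 to 0.993. Itgax, the gene of CD11c, was detected on 3 of 3 arrays in each group, with means from 5.78 to 6.14 on the normalized log2 scale. Markers of lung cell types moved with exposure. Summed intensities of 10 measured alveolar macrophage markers (of 15 listed) were 19136 to 20646 in knockout nCB samples and 13102 to 16627 in wild-type nCB samples, against 21971 to 24732 in knockout PBS and 23154 to 24429 in wild-type PBS samples. For 12 monocyte and interstitial macrophage markers (of 14 listed) the sums were 4163 to 6024 in knockout nCB and 7508 to 9000 in wild-type nCB samples, against 1571 to 1913 in knockout PBS and 1722 to 1816 in wild-type PBS samples. For 11 markers of conventional dendritic cells (of 14 listed), which also carry CD11c, the sums were 1504 to 2364 in knockout nCB and 2679 to 3295 in wild-type nCB samples, against 1295 to 1557 in knockout PBS and 1680 to 1889 in wild-type PBS samples. Those of 6 T and NK cell markers (of 11 listed) were 1308 to 1782 in knockout nCB and 1195 to 1652 in wild-type nCB samples, against 1941 to 2340 in knockout PBS and 2038 to 2306 in wild-type PBS samples. Taken singly, these 6 were mixed: 3 were higher under nCB in knockout and 4 in wild-type cells, and bright markers weigh most in such sums. In such bulk samples, fewer cells of a type and less RNA per cell cannot be told apart, and the part of this shift in the results below was not tested.

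Among the genes that fitted the name rule, Uqcrfs1 (the Rieske iron-sulfur protein of complex III), Cox4i2 (the lung form of Cox4), Cox8b (a muscle form of Cox8) and Ndufb11 (an accessory subunit of complex I) fell short of the detection rule. Just outside it lay 2 probes of Uqcrfs1 and 1 each of Ndufb11 and Sdhb, detected on 2 arrays, and just inside lay a second probe of Ndufab1, detected on 4. Of the 81 members, 77 were detected on 3 of 3 arrays in each group. The exceptions were Atp5k, Atp5md, Cox7b and Ndufb4.

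Under nCB, 4 respiratory chain genes changed in the same direction in both genotypes. Cox6a2 rose, and Cox6b2, Ndufaf1 and Uqcrc2 fell. In knockout cells these 4 were all that changed, 1 higher and 3 lower, or 4.94% of the members, against 16% of all features in that comparison (8.69% higher and 7.29% lower, limma, Benjamini-Hochberg adjusted p under 0.05). In wild-type cells 4 more rose, Ndufa12, Ndufb6, Ndufc1 and Sdhb, which gave 5 higher and 3 lower, or 9.88% of the members against 18.1% of all features (8.88% higher and 9.22% lower). When arrays were scaled to equal medians in place of quantile normalization, the wild-type split was 1 higher and 2 lower. Under that scaling the median wild-type difference of all features was -0.11, against -0.02 with quantile normalization. The loss of higher calls was not separated from this shift of all features. With quantile normalization but without wild-type nCB 1 the split was 1 higher and 3 lower, and without wild-type PBS 3 it was 2 higher and 3 lower. Without any other single wild-type array, 3 were higher and 2 lower.

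**Figure D1:**
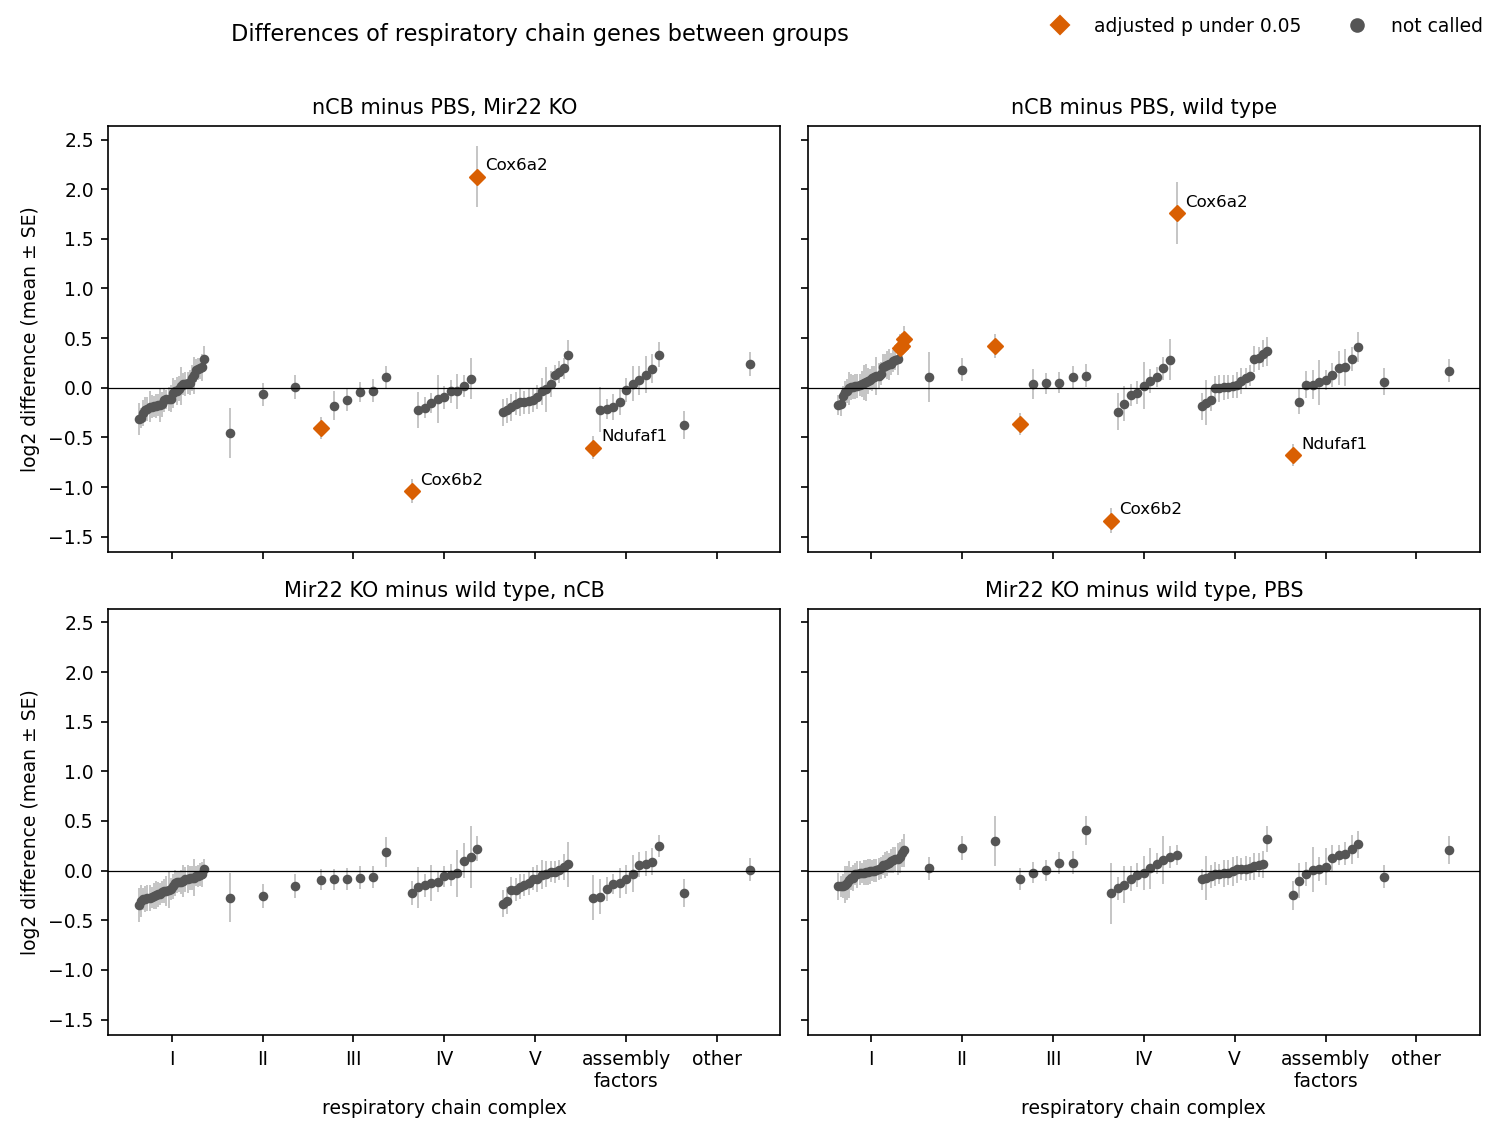
Each point is 1 of the 81 genes, with its log2 difference ± SE on the vertical axis and its complex on the horizontal axis, in panels for nCB minus PBS in Mir22 knockout and wild-type cells (top) and knockout minus wild type under nCB and PBS (bottom). Orange diamonds have an adjusted p under 0.05, and outside Cox6a2, Cox6b2 and Ndufaf1 the points lie within 0.5 of 0.

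Cox6a2 encodes the form of cytochrome c oxidase subunit 6a known from heart and skeletal muscle. In knockout cells its normalized log2 intensity was 8.05, 7.73 and 8.26 on the nCB arrays and 5.67, 6.37 and 5.62 on the PBS arrays. In wild-type cells it was 7.85, 7.93 and 7.85 on the nCB arrays and 5.71, 5.54 and 7.10 on the PBS arrays. Every nCB array lay above every PBS array, and wild-type PBS 3 stood apart from the other PBS arrays. The log2 difference was 2.13 ± 0.31 in knockout cells (4.37-fold, adjusted p = 0.000197) and 1.76 ± 0.31 in wild-type cells (3.39-fold, adjusted p = 0.000826). Without wild-type PBS 3 the wild-type difference was 2.25, and without any other single array it was 1.47 to 1.78. Over 12 alternatives that kept all arrays, the difference ran from 1.34 to 2.58 in knockout and from 1.09 to 2.16 in wild-type cells. Before normalization the scanner intensity was 273 to 334 on the 6 nCB arrays and 119 to 216 on the 6 PBS arrays.

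The broadly used partner, Cox6a1, was measured by its own probe. It gave 10.93, 10.88 and 10.86 in knockout nCB samples and 10.99, 11.12 and 11.14 in knockout PBS samples. In wild-type cells it gave 10.98, 11.02 and 10.83 under nCB and 10.93, 11.13 and 10.99 under PBS. The differences, -0.20 (95% interval -0.43 to 0.03) in knockout and -0.07 (-0.30 to 0.16) in wild-type cells, did not pass the test. Other muscle forms gave no call: Cox7a1 differed by -0.22 ± 0.18 in knockout and -0.24 ± 0.18 in wild-type cells, and Cox8b was not detected widely enough to be tested. Of 13 heart and skeletal muscle marker genes, chosen after the values of Cox6a2 were seen, 6 were measured and none rose. Myl4, an atrial myosin light chain, fell, by 0.66 in knockout and 1.15 in wild-type cells.

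**Figure D2:**
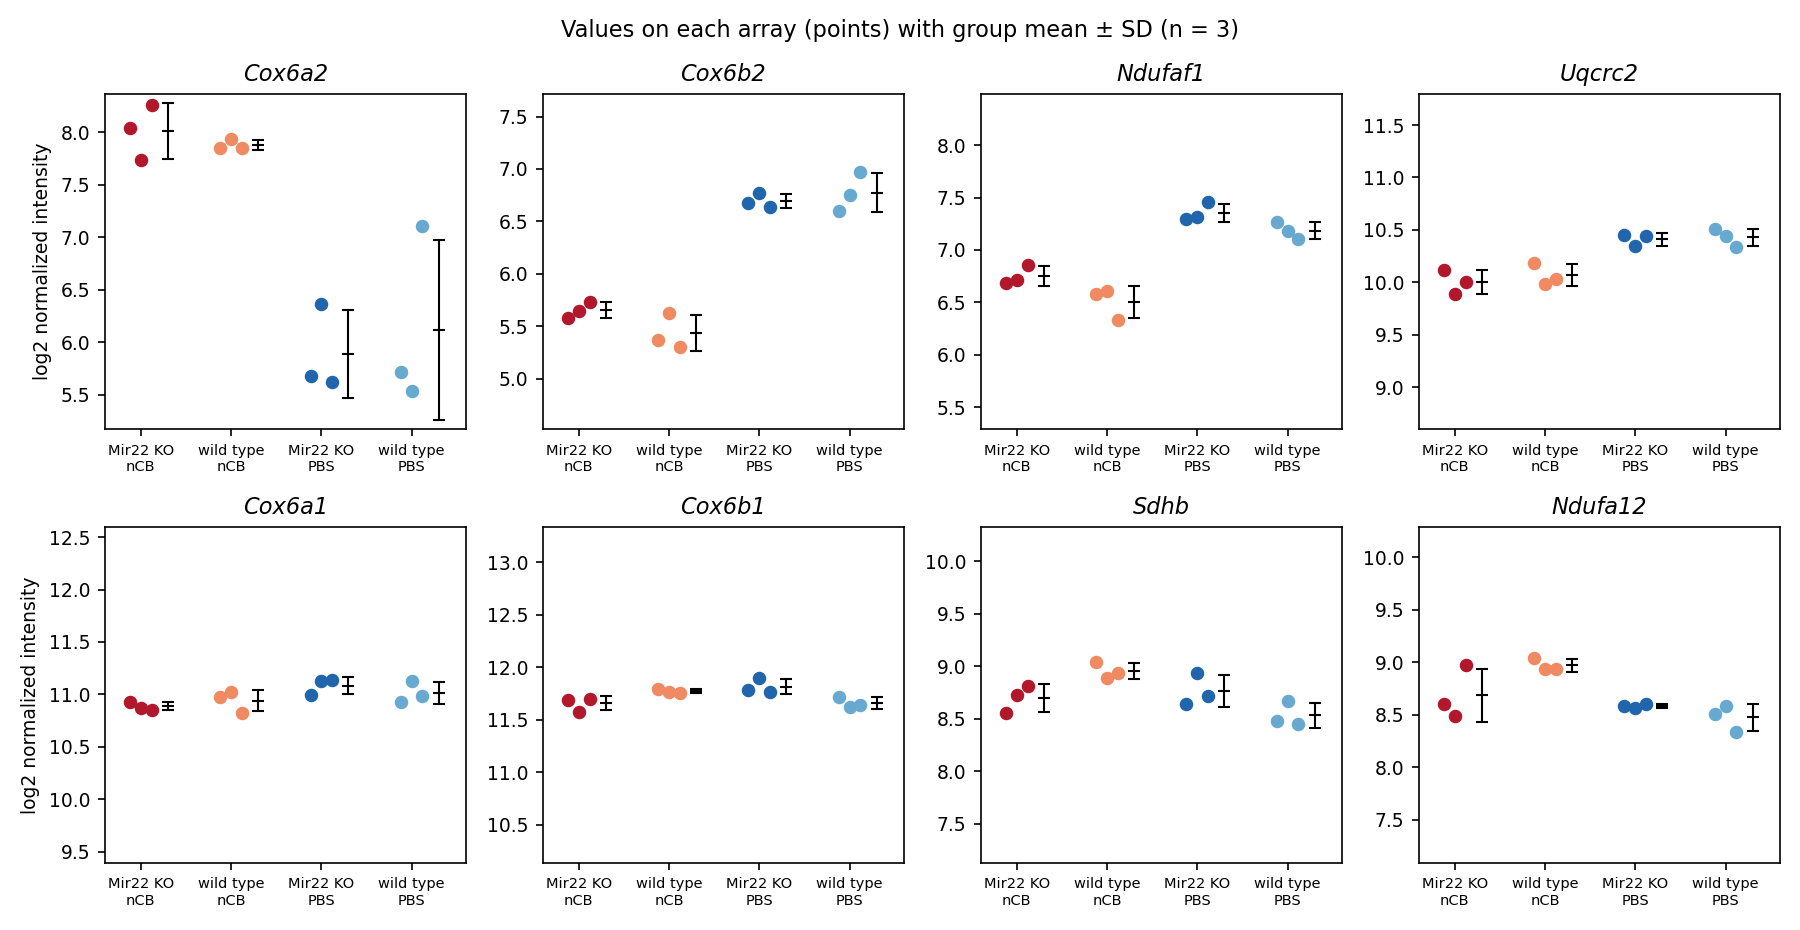
Normalized log2 intensity (vertical axis, the same span in each panel) of 8 genes on each array, with group mean ± SD (n = 3), for Mir22 knockout nCB, wild-type nCB, Mir22 knockout PBS and wild-type PBS from left to right. Cox6a2 lies between 7.73 and 8.26 on all nCB arrays, and Cox6b2, Ndufaf1 and Uqcrc2 lie lower on nCB arrays than on PBS arrays, while Cox6a1 and Cox6b1 differ by at most 0.20 between exposures.

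In mouse, Cox6a2 RNA is also known from plasmacytoid dendritic cells, so markers of these cells were read beside it, from a list of 10 chosen after the values were seen. Siglech, a surface receptor of these cells, gave 6.25, 5.77 and 5.69 in knockout nCB and 5.19, 6.24 and 5.24 in knockout PBS samples. In wild-type cells Siglech gave 6.00, 5.81 and 6.28 under nCB and 5.53, 5.39 and 7.23 under PBS. Among PBS arrays, Cox6a2, Siglech and the kallikrein gene Klk1 were each highest on wild-type PBS 3 and next highest on knockout PBS 2. Siglech and Klk1 were picked from 8 measured markers, and the array order of the others is not given here. Between nCB and PBS, Siglech differed by 0.35 in knockout cells (adjusted p = 0.614) and -0.02 in wild-type cells (adjusted p = 0.981), and Klk1 by -0.21 and -0.24 (adjusted p = 0.743 and 0.713). Of 8 measured markers, Tcf4, a transcription factor of these cells, rose by 0.61 in knockout cells and Bst2, which interferon also induces, rose by 1.32 in wild-type cells. The 8 went both ways under nCB, with 5 higher and 3 lower in knockout cells and 3 higher and 5 lower in wild-type cells. The summed intensity of the 8 was 598 to 673 in knockout nCB and 703 to 826 in wild-type nCB samples, against 457 to 678 in knockout PBS and 514 to 839 in wild-type PBS samples. The part of these cells in the Cox6a2 result was not tested.

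**Figure D3:**
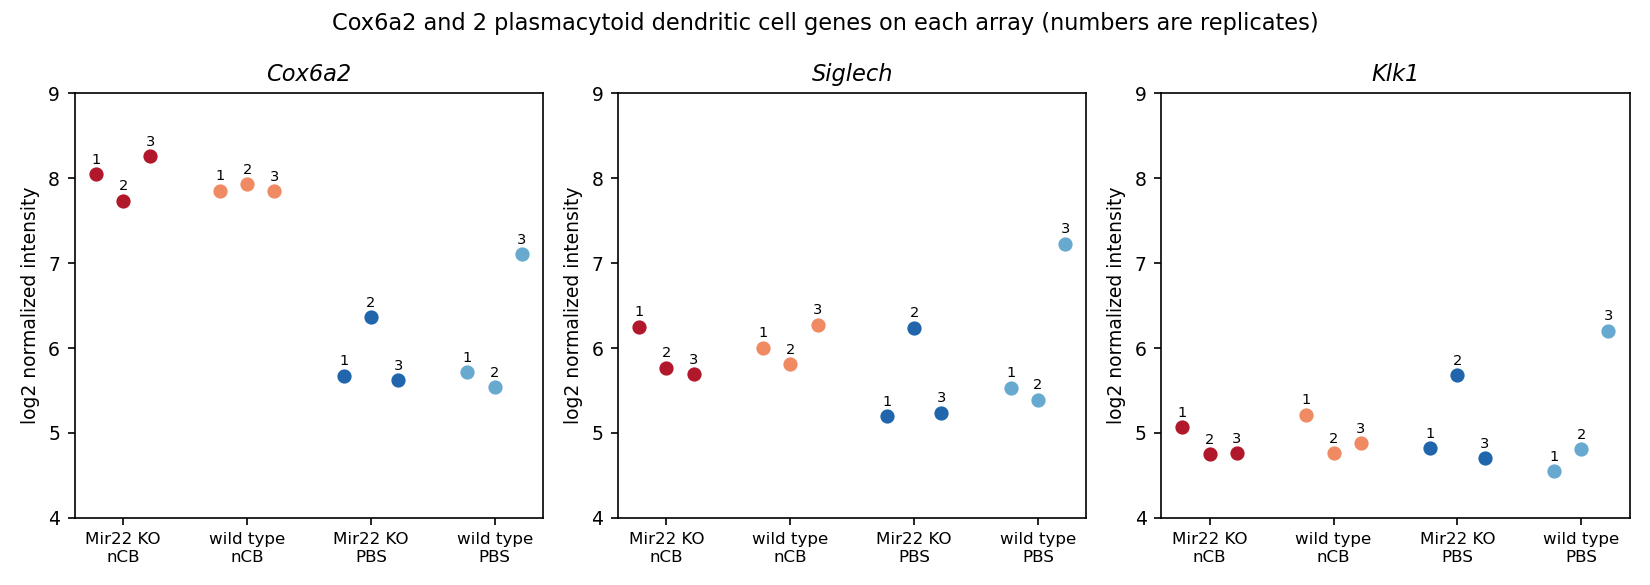
Normalized log2 intensity (vertical axis) of Cox6a2 and of the plasmacytoid dendritic cell genes Siglech and Klk1 on each array, numbered by replicate, with Mir22 knockout nCB, wild-type nCB, Mir22 knockout PBS and wild-type PBS from left to right. Siglech and Klk1 were picked from 8 measured markers. All 3 genes shown are highest among PBS arrays on wild-type PBS 3, and of these Cox6a2 alone is separated between nCB and PBS arrays.

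Cox6b2 encodes the form of subunit 6b known from testis, and Cox6b1 the broadly used form. Cox6b2 gave 5.58, 5.65 and 5.74 in knockout nCB samples and 6.67, 6.77 and 6.64 in knockout PBS samples. Wild-type samples gave 5.37, 5.63 and 5.31 under nCB and 6.60, 6.75 and 6.97 under PBS. The exposures did not overlap in either genotype, and every nCB array lay below every PBS array. It fell by 1.04 ± 0.12 in knockout cells (adjusted p = 2.85e-05) and by 1.34 ± 0.12 in wild-type cells (adjusted p = 1.61e-06), to 0.487 and 0.395 of the PBS level. The size depended on the processing. Over 12 alternatives that kept all arrays, the difference ran from -1.41 to -0.53 in knockout and from -1.88 to -0.66 in wild-type cells. Before normalization the scanner intensity of Cox6b2 was 107 to 125 on the nCB arrays and 140 to 210 on the PBS arrays. Cox6b1 gave 11.69, 11.58 and 11.70 under nCB and 11.78, 11.89 and 11.77 under PBS in knockout cells, a difference of -0.16 (95% interval -0.37 to 0.06). In wild-type cells Cox6b1 gave 11.79, 11.77 and 11.76 under nCB and 11.72, 11.62 and 11.64 under PBS, a difference of 0.11 (-0.10 to 0.33). Cox6b2 thus passed the test in both genotypes and Cox6b1 in neither, and the difference between these 2 genes was not itself tested.

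The promoter windows of this pair, of Cox6a1 and of Ndufaf1 are shown because Cox6b2 and Ndufaf1 passed the test in both genotypes and Cox6b1 and Cox6a1, the broad isoforms, in neither. Cox6a2 and Uqcrc2 also passed in both genotypes, but no window was found for them. Each window spans 250 bases before to 50 after the RefSeq start on GRCm38.p6, all on the minus strand and written 5′ to 3′. Capitals mark matches, on either strand, to letters of the motifs of NRF-1 (GCGCANGCG), the ETS core bound by GABP (CCGGAAG), YY1 (AANATGGCG) and estrogen-related receptors (TCAAGGTCA), factors known from promoters of mitochondrial genes.
Cox6b2, chr7:4753045-4753344: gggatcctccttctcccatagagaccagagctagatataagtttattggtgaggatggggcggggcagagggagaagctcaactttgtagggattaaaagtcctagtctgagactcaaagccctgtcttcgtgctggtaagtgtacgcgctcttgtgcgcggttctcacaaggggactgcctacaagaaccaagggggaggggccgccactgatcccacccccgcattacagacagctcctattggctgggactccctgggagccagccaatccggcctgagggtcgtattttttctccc
Cox6b1, chr7:30626065-30626364: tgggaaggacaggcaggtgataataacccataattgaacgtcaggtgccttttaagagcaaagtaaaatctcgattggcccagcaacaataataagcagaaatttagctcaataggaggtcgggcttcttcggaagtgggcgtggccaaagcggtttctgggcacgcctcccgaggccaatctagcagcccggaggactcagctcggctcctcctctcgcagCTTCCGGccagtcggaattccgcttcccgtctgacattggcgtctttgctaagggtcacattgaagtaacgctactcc
Cox6a1, chr5:115348909-115349208: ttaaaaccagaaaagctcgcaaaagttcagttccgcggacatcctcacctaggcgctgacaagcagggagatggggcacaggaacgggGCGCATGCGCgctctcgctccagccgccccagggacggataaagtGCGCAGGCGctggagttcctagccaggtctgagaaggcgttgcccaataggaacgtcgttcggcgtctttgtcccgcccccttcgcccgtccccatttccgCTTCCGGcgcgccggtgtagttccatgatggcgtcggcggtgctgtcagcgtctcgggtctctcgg
Ndufaf1, chr2:119662785-119663084: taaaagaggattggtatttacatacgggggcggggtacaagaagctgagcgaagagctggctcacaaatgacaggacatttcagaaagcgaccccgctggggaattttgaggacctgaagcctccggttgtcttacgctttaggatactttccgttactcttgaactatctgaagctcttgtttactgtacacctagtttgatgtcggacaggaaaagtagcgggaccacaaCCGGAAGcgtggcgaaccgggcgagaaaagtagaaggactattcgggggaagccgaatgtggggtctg
Cox6a1 held NRF-1 letters at bases 89 to 97 and, on the other strand, 90 to 98, which overlap, and at 134 to 142 of its window, and an ETS core at 235 to 241. Cox6b1 held an ETS core at 223 to 229 and Ndufaf1 at 233 to 239, and no match to 1 motif overlapped a match to another. The Cox6b2 window held none of these letters.

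Windows were found for 70 of the 81 members. The NRF-1 letters were in the windows of 22 members (31.4%, against 7.03% of all 27025 genes with a window), the ETS core in 21 (30%, against 9.93%) and the YY1 letters in 11 (15.7%, against 2.76%). The estrogen-related receptor letters were in 2 (2.86%, against 0.466%). These shares describe letters in a window and not bound sites, and base composition was not matched.

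Ndufaf1 encodes an assembly factor of the membrane arm of complex I. It gave 6.68, 6.72 and 6.86 in knockout nCB samples and 7.29, 7.32 and 7.45 in knockout PBS samples. In wild-type cells it gave 6.58, 6.61 and 6.33 under nCB and 7.26, 7.18 and 7.10 under PBS. The exposures did not overlap, and the level fell by 0.60 ± 0.11 in knockout cells (adjusted p = 0.00177) and by 0.68 ± 0.11 in wild-type cells (adjusted p = 0.000545). With arrays scaled to equal medians the knockout call was lost (adjusted p = 0.0678). The other 10 assembly factors of the rule did not pass in either genotype. Of these, Ndufaf4 had the highest difference in knockout cells (0.34 ± 0.12, adjusted p = 0.0804) and Ndufaf2, whose place in the maturing complex is taken by Ndufa12, in wild-type cells (0.41 ± 0.15, adjusted p = 0.0725).

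Uqcrc2 encodes a core protein of complex III. It gave 10.12, 9.89 and 10.01 under nCB and 10.45, 10.34 and 10.44 under PBS in knockout cells, and 10.19, 9.99 and 10.03 under nCB and 10.51, 10.44 and 10.34 under PBS in wild-type cells. The ranges did not overlap, and the level fell by 0.41 ± 0.11 in knockout (adjusted p = 0.0186) and by 0.36 ± 0.11 in wild-type cells (adjusted p = 0.0312). The call was lost in knockout cells without knockout nCB 2, PBS 1 or PBS 3 (adjusted p = 0.0807, 0.0548 and 0.0624) and in wild-type cells without nCB 2, nCB 3, PBS 1 or PBS 2 (0.112, 0.0795, 0.106 and 0.0882), and in both with median scaling (0.193 and 0.128) and when only the 2 groups compared were fitted (0.0550 and 0.0523). In wild-type cells it was also lost in the authors' processed matrix (0.0509). Its companion Uqcrc1, the other core protein, differed by 0.11 ± 0.11 in both genotypes. The remaining complex III members, Uqcr10, Uqcr11, Uqcrh and Uqcrq, ran from -0.18 to -0.03 in knockout and 0.04 to 0.12 in wild-type cells, and none passed.

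The 4 genes that passed in wild-type cells alone belong to complexes I and II. Ndufa12, an accessory subunit of the peripheral arm of complex I, gave 8.60, 8.49 and 8.97 under nCB and 8.59, 8.56 and 8.61 under PBS in knockout cells. Wild-type samples gave 9.04, 8.94 and 8.94 under nCB and 8.50, 8.59 and 8.34 under PBS. It differed by 0.10 ± 0.13 in knockout cells, where exposures overlapped, and rose by 0.50 ± 0.13 in wild-type cells (adjusted p = 0.0130), where they did not. The call was lost without wild-type nCB 1 (adjusted p = 0.0534) or PBS 3 (0.0652), and with median scaling (0.318).

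Sdhb encodes the iron-sulfur subunit of succinate dehydrogenase, complex II. It gave 8.55, 8.72 and 8.81 under nCB and 8.64, 8.93 and 8.71 under PBS in knockout cells. In wild-type cells it gave 9.04, 8.89 and 8.93 under nCB and 8.48, 8.67 and 8.45 under PBS. The exposures overlapped in knockout cells, with a difference of -0.07 ± 0.12, and lay apart in wild-type cells, where Sdhb rose by 0.42 ± 0.12 (adjusted p = 0.0228). That call was lost without wild-type nCB 1, PBS 1 or PBS 3 (adjusted p = 0.0891, 0.0739 and 0.0878) and with median scaling (0.389). The membrane anchors of the complex did not pass: Sdhc differed by 0.01 ± 0.12 in knockout and 0.18 ± 0.12 in wild-type cells, and Sdhd by -0.46 ± 0.25 and 0.11 ± 0.25. Without knockout PBS 2 the knockout difference of Sdhd was -0.80 and passed (adjusted p = 0.0149). Sdha, the remaining subunit of the complex, had no annotated probe used here.

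Ndufb6 and Ndufc1 are accessory subunits of the membrane arm of complex I. Ndufb6 gave 10.30, 9.97 and 10.31 under nCB and 9.65, 9.99 and 10.07 under PBS in knockout cells, against 10.56, 10.37 and 10.48 under nCB and 10.05, 10.10 and 10.05 under PBS in wild-type cells. Ndufc1 gave 10.10, 9.69 and 10.18 under nCB and 9.64, 9.83 and 9.88 under PBS in knockout cells, against 10.29, 10.19 and 10.22 under nCB and 9.64, 9.93 and 9.88 under PBS in wild-type cells. Exposures overlapped in knockout cells for both genes and lay apart in wild-type cells. The knockout differences were 0.29 ± 0.13 (adjusted p = 0.169) for Ndufb6 and 0.21 ± 0.14 (adjusted p = 0.356) for Ndufc1, and the wild-type ones 0.41 ± 0.13 (adjusted p = 0.0450) and 0.42 ± 0.14 (adjusted p = 0.0461). The wild-type calls were lost in 7 and 9 of 12 fits that left out 1 array, among them every fit without a wild-type array, with adjusted p up to 0.147 and 0.175.

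Whether the effect of nCB differed between genotypes was tested as an interaction, and limma called none of the 81 members (0.129% of all features were called). Unadjusted, 4 members had p under 0.05 (4.94%, against 9.92% of all features). They were Atp5e (-0.52), Sdhb (-0.49), Cox7a2l (-0.44) and Ndufa12 (-0.40). The interaction of Sdhb had a 95% interval of -0.85 to -0.13 and an adjusted p of 0.336, so the wild-type call was not shown to differ from the knockout value. For Cox6a2 the interaction was 0.37 (-0.57 to 1.31) and for Cox6b2 0.30 (-0.08 to 0.68). The intervals of 47 members lay within 1.5-fold either way and those of 79 within 2-fold.

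Most respiratory chain genes moved little under nCB. The difference lay within 0.5 log2 units of 0 for 78 of 81 members in each genotype (96.3%), against 86.9% of all features in knockout and 85.7% in wild-type cells. The 95% interval lay within 1.5-fold either way for 69 members in knockout and 64 in wild-type cells. Exposures did not overlap for 16 members in knockout cells (5 higher, 11 lower, 19.8%, against 30.5% of all features) and for 22 in wild-type cells (19 higher, 3 lower, 27.2%, against 34.1%). The members were bright, with 72 above the median feature in mean log2 intensity, and of all features above that median 22.3% were called in knockout and 25.4% in wild-type cells.

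The median difference of the members was below 0 in knockout cells. With quantile normalization, but not with median scaling, it was above 0 in wild-type cells. The members share arrays, so counts of genes are not counts of replicates. In knockout cells the median of the 81 members was -0.09, with 28 above 0, and that of all features -0.01. In wild-type cells it was 0.07, with 62 above 0, and that of all features -0.02, but with arrays scaled to equal medians it was -0.04, with 31 above 0, beside -0.11 for all features. Relative to the median of all features, that of the members stood at -0.08 in knockout cells (-0.13 with median scaling) and at 0.09 in wild-type cells (0.07 with median scaling). The genotypes were compared with their own PBS groups and share no arrays in these values. By array, the members' median deviation from their own means over all arrays was -0.05, -0.15 and 0.03 in knockout nCB samples. In knockout PBS samples it was -0.10, 0.09 and 0.03, with overlap. Wild-type samples gave 0.14, 0.04 and 0.03 under nCB and -0.03, -0.02 and 0.002 under PBS, without overlap. The pooled within-group SD of the members' median was 0.07, near the size of these shifts. The knockout shift was not separated from the spread between arrays.

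**Figure D4:**
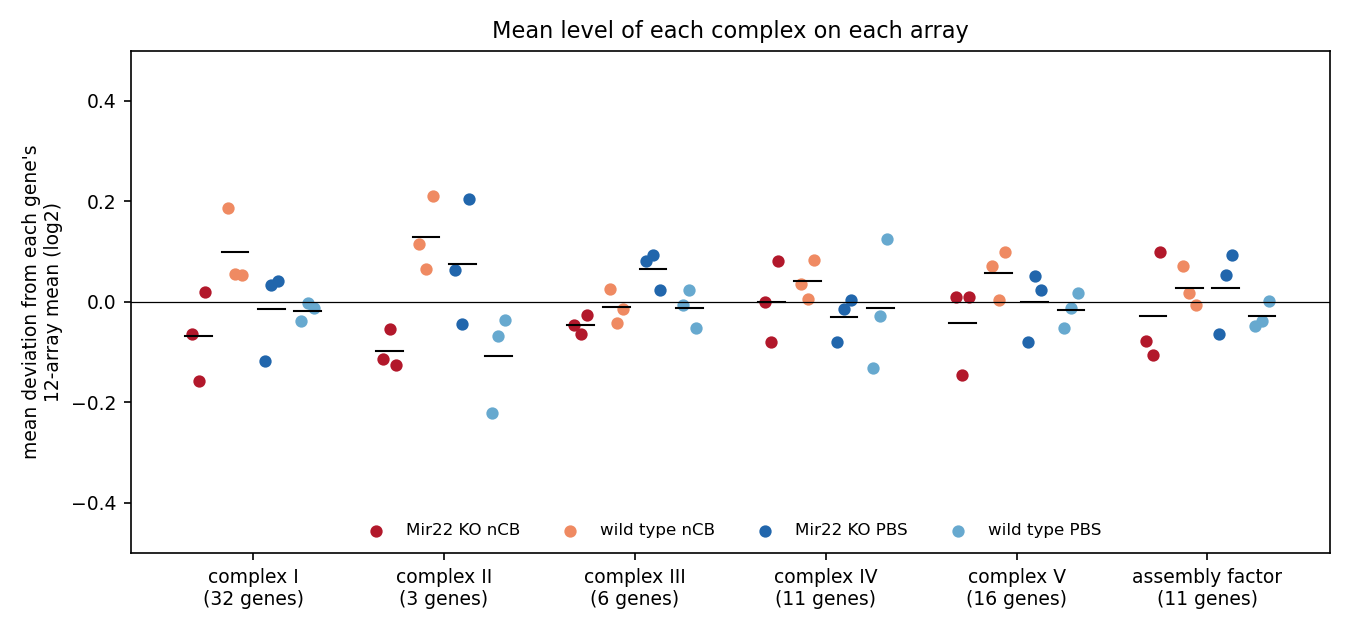
Each point is 1 array, with the mean deviation of the genes of a complex from their own 12-array means (log2) on the vertical axis and bars at group means, for Mir22 knockout nCB, wild-type nCB, Mir22 knockout PBS and wild-type PBS. Complex I runs from -0.16 to 0.02 on knockout nCB arrays and 0.05 to 0.19 on wild-type nCB arrays, with PBS arrays of both genotypes between -0.12 and 0.04.

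Complex I, the NADH dehydrogenase, is the entry point for electrons from NADH. In knockout cells its 32 subunits had a median nCB difference of -0.08, from -0.31 (Ndufb4, detected on 1 of 3 nCB arrays) to 0.29 (Ndufb6), and none passed. Ndufv1, the subunit that binds NADH, was the nearest, at -0.30 ± 0.10 (adjusted p = 0.0546), and it passed in 6 of 12 alternatives that kept all arrays. In wild-type cells the median was 0.09, from -0.18 (Ndufv1) to 0.50 (Ndufa12). There 3 were called higher (9.38%, against 8.88% of all features) and 26 of 32 were above 0 (81.2%, against 46%). With median scaling the median was -0.04, still 0.07 above all features, and 12 of 32 were above 0. Core subunits that hold iron-sulfur clusters did not pass: Ndufs7 differed by -0.12 and -0.08 and Ndufs8 by -0.21 and -0.03 in knockout and wild-type cells. Ndufa1, an accessory subunit needed for assembly, differed by 0.04 ± 0.12 and 0.09 ± 0.12. No probe annotated to the core subunit Ndufs1 was used here.

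In genes with several kept probes (25 genes, 57 probes), the nCB differences of a gene's probes spanned a median of 0.15 in knockout and 0.17 in wild-type cells. The largest spans were 0.56 and 0.42. Even the median spans were larger in size than the members' median differences, -0.09 and 0.07. In 3 genes another probe passed the test where the brightest did not, when each probe was fitted apart. One of 4 Ndufs4 probes fell by 0.42 in knockout cells (adjusted p = 0.0424), with -0.15 to -0.25 at the other 3. A dimmer Ndufs6 probe was 0.48 higher in wild-type cells (adjusted p = 0.0280), with 0.14 at the brighter probe. In Ndufc1 the dimmer probe was 0.46 higher in wild-type cells (adjusted p = 0.0168), and the brighter one, at 0.42, had an adjusted p of 0.0531 in that fit.

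In complex IV, the other members showed no call beside the 2 isoform genes. Cox4i1, the main form of Cox4, differed by 0.02 ± 0.11 in knockout and 0.20 ± 0.11 in wild-type cells, and Cox7a2, the broad form of Cox7a, by 0.09 ± 0.21 and 0.28 ± 0.21. Cox5a, Cox5b, Cox6c and Cox7b ran from -0.11 to -0.03 in knockout and from -0.16 to 0.07 in wild-type cells. The complex median was -0.10 in knockout and 0.02 in wild-type cells, and -0.17 and -0.04 with median scaling.

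Cox7a2l, a factor that joins complexes III and IV into supercomplexes, gave 9.66, 9.80 and 10.08 in knockout nCB and 10.12, 10.35 and 10.19 in knockout PBS samples. Wild-type samples gave 10.20, 10.17 and 9.85 under nCB and 10.15, 9.89 and 10.00 under PBS. It differed by -0.37 ± 0.14 in knockout cells (adjusted p = 0.0844) without overlap and by 0.06 ± 0.14 in wild-type cells with overlap. Without knockout nCB 3 the knockout difference was -0.49 and passed (adjusted p = 0.0339).

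Complex V had no called gene in either genotype. Unadjusted, 1 of 16 subunits had p under 0.05 in knockout (6.25%, against 28.4% of all features) and 4 in wild-type cells (25%, against 29.4%). Atp5o, a subunit of the stalk that joins the catalytic head to the membrane part, differed by 0.30 in wild-type cells and passed without background correction, with an offset of 50 and with an intensity trend in the variance model (adjusted p = 0.0195, 0.0268 and 0.0332). Atp5k passed in wild-type cells without wild-type PBS 1, at 0.47 (adjusted p = 0.0341), and Atp5md without wild-type PBS 3, at 0.52 (adjusted p = 0.0287). Both probes were detected on 3 of 3 wild-type nCB arrays but on 1 of 3 wild-type PBS arrays. In knockout cells Atp5md was detected on 3 of 3 nCB arrays and 1 of 3 PBS arrays. Its mean log2 was 4.63, and it met the detection rule through the nCB groups, where it was highest. The medians of complex V were -0.11 in knockout and 0.02 in wild-type cells, and -0.20 and -0.10 with median scaling. The catalytic beta subunit Atp5b differed by -0.16 ± 0.11 and -0.12 ± 0.11 and the alpha subunit Atp5a1 by -0.01 ± 0.23 and -0.15 ± 0.23 in knockout and wild-type cells. Atp5md, a small membrane subunit also known as DAPIT, had the highest difference in both (0.33 ± 0.15, adjusted p = 0.148, and 0.37 ± 0.15, adjusted p = 0.101), and the lowest were Atp5pb (-0.25 ± 0.13) in knockout and Atp5g3 (-0.19 ± 0.14) in wild-type cells. No probe annotated to Atp5g1 was used here.

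Between genotypes, no member was called under PBS or under nCB. Under PBS, limma called 0.945% of all features, and 2 members (2.47%, against 8.28% of all features) had an unadjusted p under 0.05, Uqcrq (0.41 ± 0.15, adjusted p = 0.388) and Atp5e (0.32 ± 0.13, adjusted p = 0.480). The 81 differences ran from -0.25 to 0.41 with a median of 0.01, which was -0.17 with median scaling, when all features had -0.13. The intervals of 76 members lay within 1.5-fold either way. Knockout and wild-type PBS arrays did not overlap for 5 members (6.17%, against 13.2% of all features).

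Under nCB, limma called 3.42% of all features, and 8 members had an unadjusted p under 0.05 (9.88%, against 16.1% of all features). These were Ndufs3, Ndufa9, Ndufa12, Ndufc2, Sdhb, Atp5k and Atp5pb with lower values in knockout cells, and Ndufaf1 with higher ones. The median of the 81 was -0.11, with 13 above 0, against 0.01 for all features, and -0.23 with median scaling. Knockout arrays lay wholly below wild-type arrays for 14 members and above for 1, together 18.5%, against 19.8% of all features. In complex I, 1 of 32 subunits was above 0, with a median of -0.17, and 8 did not overlap, all lower in knockout cells. These 8 were 25% of the complex, against 19.8% of all features and 24.5% of those brighter than the median feature.

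Ndufa9, an accessory subunit of the peripheral arm, gave 9.34, 9.36 and 9.37 in knockout nCB and 9.70, 9.55 and 9.63 in wild-type nCB samples, a difference of -0.27 ± 0.11 (adjusted p = 0.209). Ndufs3, a core subunit, gave 8.88, 8.79 and 8.64 in knockout nCB and 9.09, 9.05 and 9.05 in wild-type nCB samples, a difference of -0.29 ± 0.11 (adjusted p = 0.189). Neither overlapped and neither passed after adjustment. Without background correction Ndufa9 passed, at -0.24 (adjusted p = 0.0484). Atp5k, subunit e of ATP synthase, was detected on 0 of 3 knockout nCB and 3 of 3 wild-type nCB arrays, and on 1 array in each PBS group. It thus met the detection rule through the group where it was highest, and it was the dimmest member (mean log2 4.55). Between the nCB groups it differed by -0.33 (adjusted p = 0.225) and did not pass. In these same samples the alveolar macrophage markers were higher and the monocyte and interstitial macrophage markers lower in knockout cells, with 3 of 10 and 5 of 12 called, and the part of that difference here was not tested.

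Of the subunits encoded in mitochondrial DNA, 8 were measured (ND1, ND4, ND4L, ND5, ND6, CYTB, COX2 and ATP6) and none passed under nCB. Their median nCB difference was 0.31 in knockout cells, with 8 of 8 above 0, and 0.13 in wild-type cells, with 6 of 8. ATP6 lay nearest to the threshold (0.49 ± 0.16 in knockout cells, adjusted p = 0.0517). Unadjusted, 4 of the 8 had p under 0.05 in knockout cells (28.4% of all features did) and 1 in wild-type cells (29.4% of all features).

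Of 12 measured chain components outside the name rule (of 15 listed), 3 fell in knockout cells, while 2 rose and 2 fell in wild-type cells. These were 25% and 33.3% of the list, against 16% and 18.1% of all features. Lists of assembly factors, of the tricarboxylic acid cycle, of membrane, import and chaperone genes and of regulators had 7.14% to 14.3% of their genes called in knockout and 0% to 13.3% in wild-type cells. Dhodh, which feeds electrons from pyrimidine synthesis to ubiquinone, fell by 0.53 ± 0.13 in knockout and 0.48 ± 0.13 in wild-type cells (adjusted p = 0.0124 and 0.0213). Etfb, a subunit of the electron carrier of fatty acid oxidation, fell by 0.38 ± 0.12 in both genotypes (adjusted p = 0.0465 and 0.0417), and its partner Etfa by 0.36 ± 0.11 in knockout cells (adjusted p = 0.0319). Atpif1, the inhibitor of ATP synthase, rose by 0.54 ± 0.10 in wild-type cells (adjusted p = 0.00168), as did Cycs, cytochrome c, by 0.43 ± 0.14 (adjusted p = 0.0463).

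Of 23 measured assembly factors outside the rule (of 30 listed), Cox10, needed for haem a synthesis, rose by 0.49 ± 0.14 and Bcs1l, which inserts the Rieske protein, fell by 0.45 ± 0.14 in knockout cells (adjusted p = 0.0240 and 0.0434). Cox17, a copper chaperone of complex IV, rose by 0.42 ± 0.12 in wild-type cells (adjusted p = 0.0281). Of 14 measured genes of the tricarboxylic acid cycle (of 16 listed), Suclg2, a subunit of succinyl-CoA synthetase, fell by 0.66 ± 0.11 in knockout and 0.36 ± 0.11 in wild-type cells (adjusted p = 0.000884 and 0.0382), and Idh3g, a subunit of isocitrate dehydrogenase, by 0.40 ± 0.11 in knockout cells (adjusted p = 0.0173). Of 14 measured regulators of mitochondrial genes (of 22 listed), Tfam, which packages mitochondrial DNA, fell by 0.55 ± 0.12 in knockout cells (adjusted p = 0.00413), and none passed in wild-type cells.

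Of 15 measured genes for mitochondrial membrane channels, import and chaperones (of 20 listed), Hspa9, the matrix Hsp70 chaperone, rose by 0.58 ± 0.14 in knockout cells (adjusted p = 0.00848) and Timm50, an import receptor, by 0.36 ± 0.11 in wild-type cells (adjusted p = 0.0342). Slc25a5, an ADP and ATP carrier, fell by 0.36 ± 0.11 in knockout and 0.34 ± 0.11 in wild-type cells (adjusted p = 0.0330 and 0.0424). Vdac2, a channel of the outer membrane, was the gene in these lists of mitochondrial genes that differed between genotypes. It was higher in knockout cells by 0.82 ± 0.13 under nCB and 0.86 ± 0.13 under PBS (adjusted p = 0.00262 and 0.00218).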

How the data were processed

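RNA of 12 samples was measured on Illumina bead arrays. The authors deposited scanned intensity per probe with a detection p-value beside it, exported with GenomeStudio (per the labels, version not given in the sources used here), and a matrix of processed values that, judged from its values, is on a log2 scale and quantile-normalized. Starting from the intensities of 45281 probes, background was estimated from the detection p-values and arrays were quantile-normalized with neqc of limma 3.58.1 (R 4.3.3, offset 16), giving log2 intensities. Probes detected at p under 0.05 on at least 3 arrays (17346) were kept, with the brightest probe per symbol of the platform annotation (12380 features). One model with a mean per group was fitted to all arrays (8 residual and 6.86 prior degrees of freedom), with two-sided tests, 95% intervals and Benjamini-Hochberg adjustment over all features. With 3 against 3 arrays an exact permutation test cannot go below 0.1. The number of arrays limits the precision. The fit was checked on simulated data.

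The members, lists and tests were chosen with earlier results of these data known. Genes were named when called, when highest or lowest in a complex, when probes disagreed, or from a list of known isoforms and subunits. Windows around gene starts came from RefSeq (GRCm38.p6). Alternatives covered background, scaling, filter, probe choice, the variance model, a replicate block and leaving out each array.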

Additional observations from a re-analysis of the deposited data

How the results depend on the processing

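Under 12 alternatives that kept all arrays and 12 fits that left out 1 array, Cox6a2 and Cox6b2 kept their direction and call in both genotypes, as did Ndufaf1 except in knockout cells with median scaling. In knockout cells the 4 called became 2 with median scaling (1 lower), and 7 both without background correction and with an offset of 50 (2 higher and 5 lower in each), while an intensity trend in the variance model gave 5 lower. The genes added in knockout cells were Cox7a2l, Ndufv1 and Ndufaf4. In wild-type cells the 8 called members became 3 with median scaling and 5 in the authors' processed matrix. The 5 called higher became 1 with median scaling, 3 in the authors' matrix, 9 without background correction and 8 with an offset of 50.

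Median scaling moved the median of the members to -0.038 for nCB in wild-type cells, to -0.1685 for knockout against wild type under PBS and to -0.2276 under nCB. All features had medians of -0.1069, -0.1297 and -0.0251 in these comparisons, so this scaling did not centre the features tested. For knockout against wild type under nCB, 1 member was called (lower) without background correction. Other comparisons of genotype, and the interaction, gave 0 calls throughout.

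Leaving out 1 array gave 3 to 5 called members in knockout cells (1 to 2 higher, 2 to 4 lower) and 4 to 8 in wild-type cells (1 to 5 higher, 2 to 3 lower). The wild-type count was 4 without wild-type nCB 1 and 5 without any other wild-type array, while the higher calls were 1 without wild-type nCB 1, 2 without PBS 3, and 3 without any other wild-type array or knockout nCB 1. In knockout cells they were 2 without knockout nCB 2.

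Replicate numbers carried no pairing: 5 of 18 same-numbered pairs correlated above 0.1 (range -0.30 to 0.22), and 1 of 12 arrays correlated best with its own number. With the replicate block, 3 members were called higher in wild-type cells in place of 5. Array number and probe signal limit what these data show: small shifts of single genes near the threshold, such as Ndufb6 and Ndufc1, changed sides under several settings.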
